A study of Oryza sativa Indica Group with 27 samples.

Results

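NIA1, GLN1-1, GLN1-2, GLN1-3 and GLT2 are 5 rice genes that take inorganic nitrogen into amino acids. They were found through probe sets whose gene carries one of these names as symbol or synonym, with or without the prefix Os, and they are 5 of 17905 genes with a tested probe set. Among 57194 tested probe sets, 6 matched. NIA1 has 2 probe sets and each of the other genes has 1. Nitrate reductase, the product of NIA1, turns nitrate into nitrite, which is reduced further to ammonium. Glutamine synthetase joins ammonium to glutamate to make glutamine, and GLN1-1, GLN1-2 and GLN1-3 encode its cytosolic isoforms. Glutamate synthase then passes the amide nitrogen of glutamine to a carbon skeleton to form glutamate. GLT2 encodes a form of that enzyme that takes its electrons from NADH, and GLU encodes the ferredoxin-dependent form of leaves. The 5 genes were chosen by name, with the intensities and salt differences of these same arrays already known. Their levels and differences are therefore given as a description, with no test.

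The series set salt-treated against unstressed seedlings of 3 indica rice cultivars. The title speaks of tolerant and susceptible cultivars without assigning them, and Nonabokra and Pokkali are known as salt-tolerant and IR29 as salt-sensitive. IR29 is the only sensitive cultivar here, so salt sensitivity cannot be told apart from any other trait of IR29 in comparisons with it. Whole seedlings were taken after 7 days of hydroponic growth, and total RNA was labelled with biotin and hybridised to Affymetrix rice genome arrays. The salt groups were Nonabokra, Pokkali and IR29 in 200 mM NaCl for 3 h or for 6 h, and the unstressed groups were the same cultivars kept in growth medium for 6 h. Each of the 9 groups has 3 arrays, called biological replicates in the labels, which do not say whether a replicate is 1 plant, a pool or a separate culture. A difference from control at 3 h of salt also spans a difference in hours since the start of treatment, which cannot be told apart from salt. For the 3 h groups the labels conflict: their description mentions drought, but title and characteristics name salt, which was followed here.

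Array medians ranged between 7.09 and 7.77 intensity units and upper quartiles between 158 and 175. Arrays of a group correlated at 0.9957 to 0.9992, and the lowest values belonged to replicate 3 of unstressed Nonabokra, replicate 1 of Nonabokra at 6 h and replicate 1 of IR29 at 6 h. The 12 probe sets of the poly-A spikes were lower on salt arrays than on control arrays, with mean log2 differences between -0.59 and -0.46 at 3 h and between -1.83 and -1.33 at 6 h. Their part in the results was not tested. Of 3 shoot markers measured, RBCS and CAB2R were bright and RBCS1 was near the array median, and the sum of the 3 lay between 49887 and 64567 on all arrays. Of the 6 measured root markers, CASP1 and IRT1 were little above the array medians in unstressed Nonabokra, with means of 11.2 and 12.3. SCR1 was dim throughout, with group means of 22.3 to 35.3. The sum of the 6 intensities differed between groups, as given beside GLT2. In whole seedlings, fewer cells of a type and less RNA per cell cannot be told apart.

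Differences are on the scale of log2(intensity + 16), salt minus control, with the standard error of limma's fit to all 27 arrays. In Nonabokra at 3 h of salt, 2 of the 5 genes were higher than control on every array, against 15% of all tested probe sets, 2 were lower, against 19.3%, and the arrays of 1 gene overlapped. In Nonabokra at 6 h the counts were 2 higher, against 12.4% of all probe sets, 2 lower, against 25.3%, and 1 overlapping. In Pokkali at 3 h 2 genes were higher (16.1% of all probe sets), 2 lower (16.7%) and 1 overlapped. After 6 h 3 genes of Pokkali were higher (13.4% of all probe sets) and 2 lower (53.7%). In IR29 at 3 h 1 gene was higher (17.5% of all probe sets), 3 were lower (63.1%) and 1 overlapped. After 6 h none of the 5 was higher in IR29 (12.6% of all probe sets), 2 were lower (43.5%) and 3 overlapped. NIA1 is counted here by its brighter probe set. Since the 5 genes were chosen with such values known, nothing is read from these counts.

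The median log2 difference of the 5 genes was 0.06 in Nonabokra at 3 h and -0.17 at 6 h, 0.03 and 0.39 in Pokkali, and -0.97 and -0.21 in IR29. Over all tested probe sets the corresponding medians lay between -0.0093 and 0.00098. Every salt comparison except IR29 at 6 h held both higher and lower genes.

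**Figure D1:**
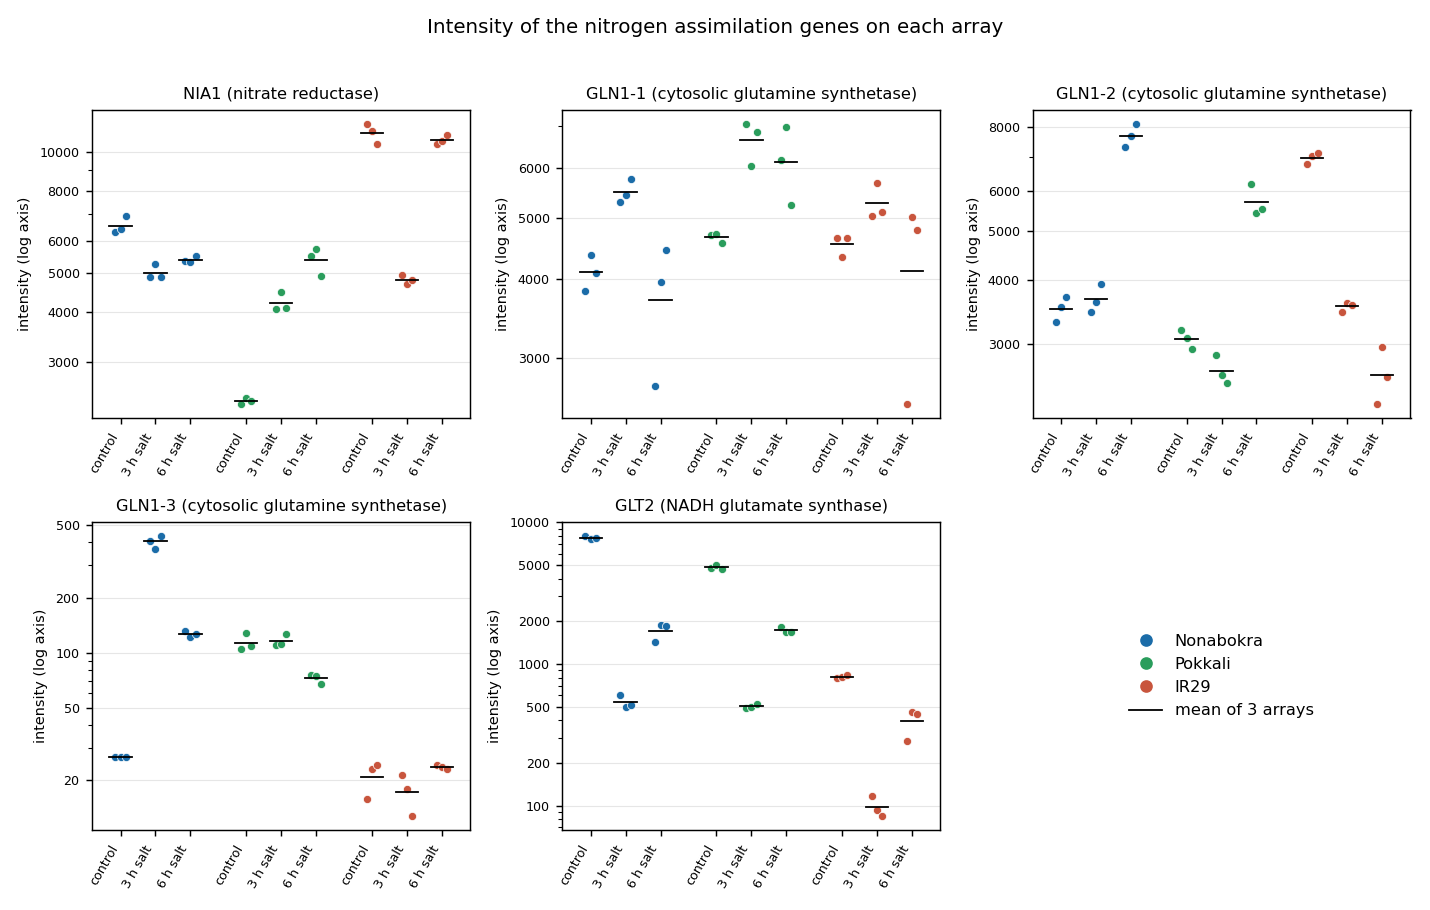
Intensity (vertical, log axis) of NIA1 (brighter probe set), GLN1-1, GLN1-2, GLN1-3 and GLT2 on each of the 27 arrays, by cultivar and time (horizontal); each point is 1 array and each line the mean of 3. GLT2 was lower on all salt arrays than on control arrays of its cultivar, GLN1-2 at 6 h was above control in Nonabokra and Pokkali and below it in IR29, and GLN1-3 was highest in Nonabokra at 3 h.

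NIA1 had a different course in each cultivar. In Nonabokra its intensity was 6327, 6440.4 and 6908 in control seedlings, 4884, 5262 and 4879 after 3 h and 5354, 5311 and 5497 after 6 h. In Pokkali it was 2354, 2436 and 2401 in control seedlings, 4062, 4473 and 4086 after 3 h and 5496, 5724 and 4917 after 6 h. In IR29 it was 11762, 11299 and 10478 in control seedlings, 4937, 4685 and 4813 after 3 h and 10495, 10635 and 11021 after 6 h. Nonabokra was thus lower at both times, Pokkali was higher at both times, and IR29 was lower at 3 h and overlapped its control at 6 h.

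The log2 difference of NIA1 was -0.39 ± 0.05 at 3 h and -0.28 ± 0.05 at 6 h in Nonabokra. In Pokkali it was 0.81 ± 0.05 and 1.16 ± 0.05, or 1.76 and 2.24 times the control mean. In IR29 it was -1.21 ± 0.05 and -0.06 ± 0.05, or 0.430 and 0.959 times the control mean. After 3 h the cultivars lay closer together than without salt: group means ran between 4207 and 5008 in the 3 salt groups, and between 2397 and 11179.7 in the 3 control groups.

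Between 3 h and 6 h NIA1 of IR29 was 2.23 times as high at the later time, with a log2 difference of 1.15 ± 0.05, against 0.35 ± 0.05 in Pokkali and 0.11 ± 0.05 in Nonabokra. In the order of its 9 group means, unstressed IR29 and IR29 at 6 h stood first and overlapped, and unstressed Pokkali stood last and apart. Nonabokra at 6 h, Pokkali at 6 h, Nonabokra at 3 h and IR29 at 3 h followed each other in the middle, each overlapping the next.

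The other probe set of NIA1 read 5.06 to 5.24 on all 27 arrays, below every array median, and spanned 0.011 log2 units between its highest and lowest group means. It carries no usable course, and all values of NIA1 above come from the brighter probe set.

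GLN1-2, known as a root form of cytosolic glutamine synthetase in rice, went opposite ways in the cultivars after 6 h. In Nonabokra its intensity was 3311, 3544 and 3702 in control seedlings, 3472, 3621 and 3928 after 3 h and 7309.6, 7685 and 8138 after 6 h. Pokkali had 3192, 3087 and 2934 in control seedlings, 2851, 2606 and 2510.1 after 3 h and 6183, 5429.8 and 5523 after 6 h. IR29 had 6775, 7014 and 7113 in control seedlings, 3473, 3613 and 3579.8 after 3 h and 2281, 2954 and 2579 after 6 h. At 6 h every array of Nonabokra and of Pokkali was above its control arrays, and every array of IR29 was below its own. At 3 h Nonabokra overlapped its control, Pokkali was slightly lower and IR29 was already clearly lower.

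At 6 h the log2 difference of GLN1-2 was 1.13 ± 0.08 in Nonabokra, 0.89 ± 0.08 in Pokkali and -1.42 ± 0.08 in IR29. These correspond to 2.19, 1.86 and 0.374 times the control means. At 3 h the differences were 0.06 ± 0.08 in Nonabokra, -0.21 ± 0.08 in Pokkali and -0.97 ± 0.08 in IR29. Set against IR29, the salt response at 6 h was larger by 2.55 ± 0.11 in Nonabokra and by 2.31 ± 0.11 in Pokkali, while Nonabokra and Pokkali differed by 0.24 ± 0.11. The unstressed levels ran the other way. Control means were 3519 ± 197 in Nonabokra and 3071 ± 129 in Pokkali, against 6968 ± 174 in IR29 (SD, n = 3 each). After 6 h the means were 7711 ± 415 in Nonabokra and 5712 ± 411 in Pokkali, against 2605 ± 337 in IR29 (SD, n = 3 each). Nonabokra at 6 h was highest of the 9 groups, unstressed IR29 came next, and neither overlapped its neighbour in that order. IR29 at 6 h was lowest, and overlapped Pokkali at 3 h.

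Of the 1057 named genes whose group means spanned 1 log2 unit or more, the 3 most like GLN1-2 over the 9 group means were DREB1B (Pearson r = 0.838), AMT1-2 (r = 0.737) and BHLH148 (r = 0.733). DREB1B encodes a DREB transcription factor known from cold stress, BHLH148 a basic helix-loop-helix transcription factor, and AMT1-2 an ammonium transporter, which moves the substrate of glutamine synthetase across the plasma membrane. RefSeq lists both AMT1-2 and AMT1-3 as synonyms of a pair of neighbouring genes, and the probe set was named AMT1-2 because its gene alone carries the synonym OsAMT1;2. AMT1-2 in Nonabokra read 238, 195 and 235 in control seedlings, 372, 394 and 355 after 3 h and 745, 694 and 622 after 6 h. In Pokkali it read 88.9, 80.4 and 85.9 in control seedlings, 53.4, 64 and 70.3 after 3 h and 194, 190.1 and 208 after 6 h. In IR29 it read 162, 184 and 177 in control seedlings, 77.7, 91.5 and 91.2 after 3 h and 51.9, 55.2 and 53.5 after 6 h. As with GLN1-2, at 6 h both tolerant cultivars lay above control on every array and IR29 below it on every array. AMT1-2 was picked here for its likeness to GLN1-2 over the same group means, so a shared course follows from the choice.

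**Figure D2:**
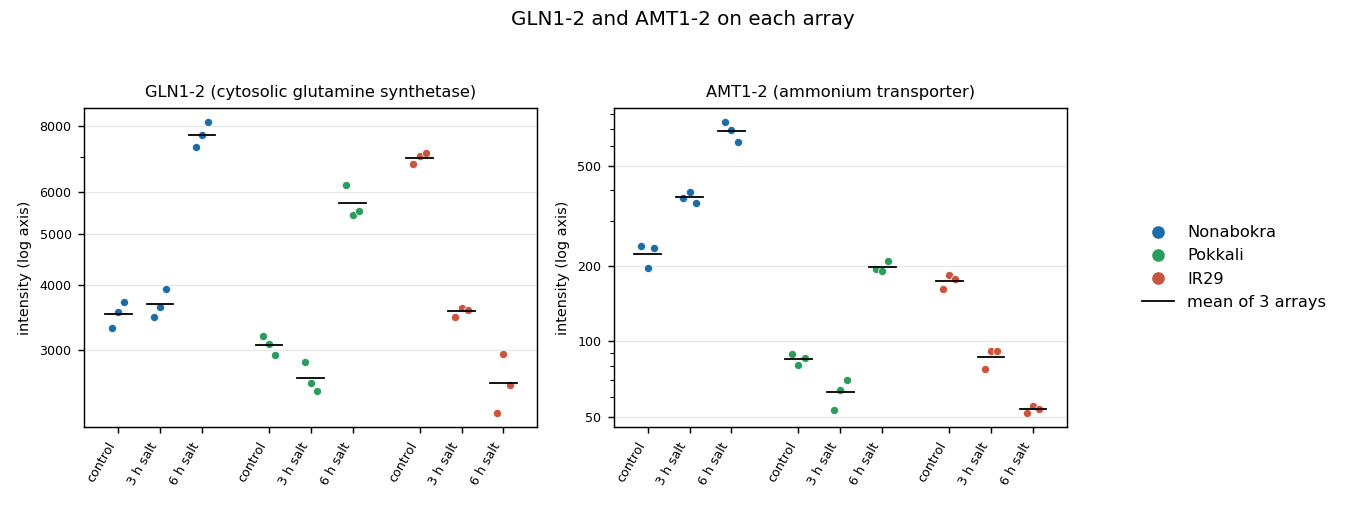
Intensity (vertical, log axis) of GLN1-2 on the left and of the ammonium transporter gene AMT1-2 on the right, on each of the 27 arrays by cultivar and time (horizontal); each point is 1 array and each line the mean of 3. For both genes Nonabokra and Pokkali at 6 h lie above their control arrays and IR29 at 6 h lies below, while at 3 h AMT1-2 of Nonabokra was above control and GLN1-2 of Nonabokra overlapped it. AMT1-2 was picked for its likeness to GLN1-2 over the group means.

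GLN1-3, a cytosolic glutamine synthetase known from reproductive organs of rice, was dim in most groups and stood out in salt-treated Nonabokra. In Nonabokra it read 26.9, 27 and 27 in control seedlings, 409.9, 369.7 and 435 after 3 h and 131, 121 and 126 after 6 h. In Pokkali it read 105, 127 and 109 in control seedlings, 110.2, 112 and 126 after 3 h and 75.3, 74.4 and 67.1 after 6 h. In IR29 it read 15.8, 23.0 and 24.3 in control seedlings, 21.4, 18.1 and 12.7 after 3 h and 24.2, 23.8 and 23.0 after 6 h. Nonabokra was above control on all salt arrays, Pokkali overlapped its control at 3 h and was below it at 6 h, and IR29 overlapped its control at both times.

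The mean of GLN1-3 in Nonabokra was 15.0 times control at 3 h and 4.68 times control at 6 h, with log2 differences of 3.29 ± 0.09 and 1.73 ± 0.09. In Pokkali the log2 differences were 0.03 ± 0.09 and -0.55 ± 0.09, and in IR29 -0.15 ± 0.09 and 0.11 ± 0.09. At 3 h the salt response of Nonabokra was above that of Pokkali by 3.26 ± 0.13. The 6 h arrays were below the 3 h arrays in Nonabokra, with a log2 difference of -1.56 ± 0.09, and in Pokkali, with -0.58 ± 0.09. In the order of group means Nonabokra at 3 h came first and apart, and Nonabokra at 6 h, Pokkali at 3 h and unstressed Pokkali came next, each overlapping its neighbour. The 3 IR29 groups filled the last places, with intensities of 12.7 to 24.3, little above the array medians, and no course of GLN1-3 could be read in IR29 at this signal. The log2 differences of such a dim gene depend on the 16 added before taking logs. With 1 added in place of 16, the differences in Nonabokra were 3.86 at 3 h and 2.19 at 6 h, and with 64 added they were 2.36 and 1.06.

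GLN1-1, the cytosolic isoform found in all organs of rice, differed least. In Nonabokra its intensity was 3834, 4366 and 4094 in control seedlings, 5304, 5446 and 5765 after 3 h and 2703, 3955 and 4448 after 6 h. Intensities in Pokkali were 4699, 4726 and 4568 in control seedlings, 7068, 6062 and 6848 after 3 h and 6182, 6992 and 5247 after 6 h. Those in IR29 were 4658, 4336 and 4651 in control seedlings, 5047, 5693 and 5108 after 3 h and 2529, 5025 and 4787 after 6 h. After 3 h all salt arrays of each cultivar were above its control arrays, and at 6 h this held in Pokkali alone. The log2 differences at 3 h were 0.43 ± 0.19 in Nonabokra, 0.51 ± 0.19 in Pokkali and 0.21 ± 0.19 in IR29, and at 6 h they were -0.17 ± 0.19, 0.39 ± 0.19 and -0.21 ± 0.19. The lowest values of Nonabokra and IR29 at 6 h both came from replicate 1, the array least like the others in each of these groups. Without IR29 replicate 1 at 6 h the IR29 difference was 0.11, and without Nonabokra replicate 1 at 6 h the Nonabokra difference was 0.035. The standard error is pooled over the 9 groups, so the wide spread of the 6 h groups also enters the differences at 3 h. In the order of group means every neighbouring pair overlapped except IR29 at 3 h, which lay above unstressed Pokkali.

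GLT2, the NADH-dependent glutamate synthase, was lower under salt in all 3 cultivars and at both times. In Nonabokra its intensity was 8027, 7648 and 7709 in control seedlings, 606, 498 and 510.3 after 3 h and 1417, 1894 and 1841 after 6 h. Pokkali read 4720.2, 5005 and 4714 in control seedlings, 486, 498 and 519.7 after 3 h and 1809, 1688 and 1679 after 6 h. IR29 read 799, 803 and 829.9 in control seedlings, 117, 92.6 and 83.8 after 3 h and 287, 458 and 444 after 6 h. No salt array overlapped the control arrays of its cultivar, and in each cultivar all arrays of 6 h lay between those of 3 h and control.

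At 3 h the mean of GLT2 was 0.0691 of control in Nonabokra, 0.104 in Pokkali and 0.121 in IR29, with log2 differences of -3.82 ± 0.14, -3.22 ± 0.14 and -2.87 ± 0.14. At 6 h it was 0.220 of control in Nonabokra, 0.359 in Pokkali and 0.489 in IR29, with log2 differences of -2.18 ± 0.14, -1.47 ± 0.14 and -1.03 ± 0.14. Without IR29 replicate 1 at 6 h the last of these was -0.82. From 3 h to 6 h the log2 difference was 1.64 ± 0.14 in Nonabokra, 1.75 ± 0.14 in Pokkali and 1.84 ± 0.14 in IR29. The response of Nonabokra minus that of IR29 was -0.95 ± 0.19 at 3 h and -1.15 ± 0.19 at 6 h. For Pokkali minus IR29 the values were -0.35 ± 0.19 and -0.44 ± 0.19. The scale of log2(intensity + 16) brings the change of IR29 at 3 h nearer to 0, and it was -3.05 with 1 added and -2.44 with 64 added.

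Unstressed levels of GLT2 also separated the cultivars. Control means were 7795 ± 204 in Nonabokra and 4813 ± 166 in Pokkali, against 811 ± 16.9 in IR29 (SD, n = 3 each), or 9.62 and 5.94 times the IR29 mean. Both tolerant cultivars after 3 h of salt were below unstressed IR29, and after 6 h they were above it. Of the 5 genes GLT2 had the widest span between its highest and lowest group means, 6.11 log2 units, and 99.8% of all tested probe sets had a smaller span. The spans were 3.66 for GLN1-3, 2.21 for NIA1, 1.57 for GLN1-2 and 0.87 for GLN1-1, against a median of 0.0998 over all probe sets, most of which are dim.

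**Figure D3:**
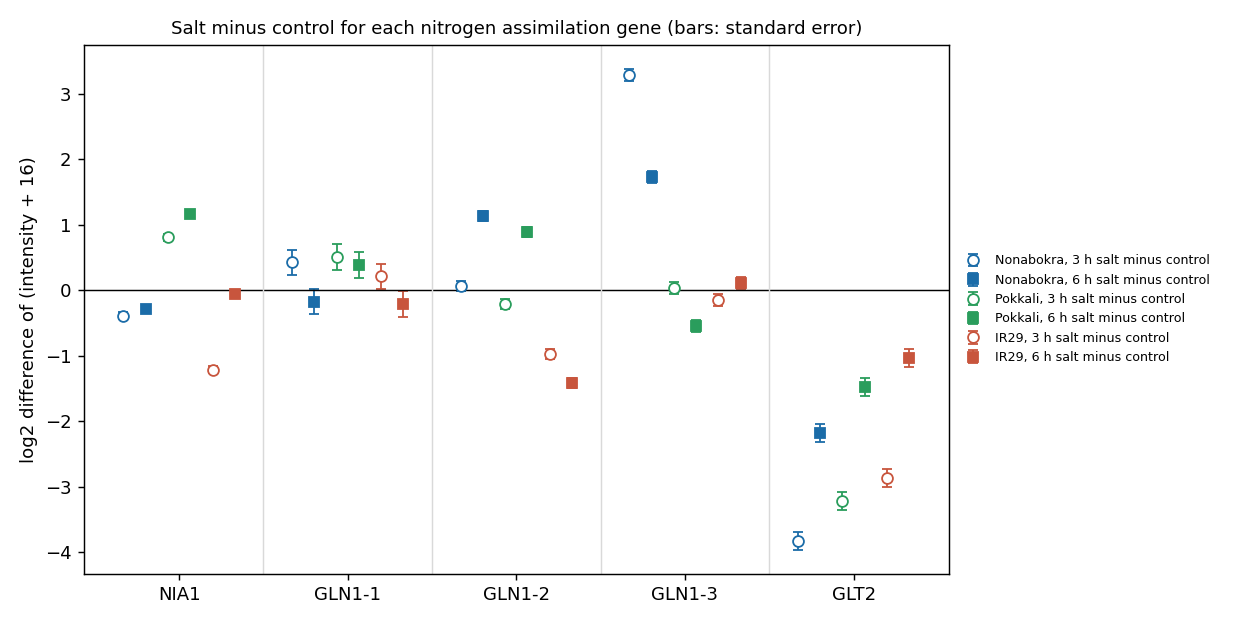
Log2 difference of (intensity + 16), salt minus control (vertical), for the 5 genes (horizontal), with open circles for 3 h, filled squares for 6 h, colours for the cultivars and bars for limma's standard error (3 arrays a group). All 6 differences of GLT2 are below 0, NIA1 is above 0 in Pokkali alone, and GLN1-2 at 6 h is above 0 in Nonabokra and Pokkali and below 0 in IR29.

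Root marker genes moved in the same arrays as GLT2. The summed intensity of CASP1, IRT1, NIP2-1, Lsi2, SCR1 and SHR1 ranged over 7670 to 8544 in unstressed Nonabokra, 2147 to 2282 after 3 h and 4970 to 5524 after 6 h. In Pokkali it was 4987 to 5177 in control seedlings, 1318 to 1529 after 3 h and 2748 to 2946 after 6 h. In IR29 it was 9079 to 10047 in control seedlings, 673 to 741 after 3 h and 1912 to 2401 after 6 h. As for GLT2, in each cultivar the sum was lowest after 3 h and intermediate after 6 h, whereas unstressed IR29 had the highest sum of root markers and the lowest GLT2 of the unstressed groups. Most of the sum comes from NIP2-1 and Lsi2, which encode silicon transporters of roots. By limma's adjusted p, 3 of the 6 markers passed as lower in Nonabokra at 3 h, 2 at 6 h, 2 in Pokkali at each time, and 5 and 4 in IR29. CASP1 and IRT1 passed as higher in Nonabokra at both times, and CASP1 also in Pokkali at both times. Over the 9 group means GLT2 correlated with the summed markers at r = 0.791, NIA1 at 0.233, GLN1-1 at -0.548, GLN1-2 at 0.497 and GLN1-3 at -0.0629, as a description over points that share cultivars and salt times. The part of root RNA in the GLT2 values was not tested.

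**Figure D4:**
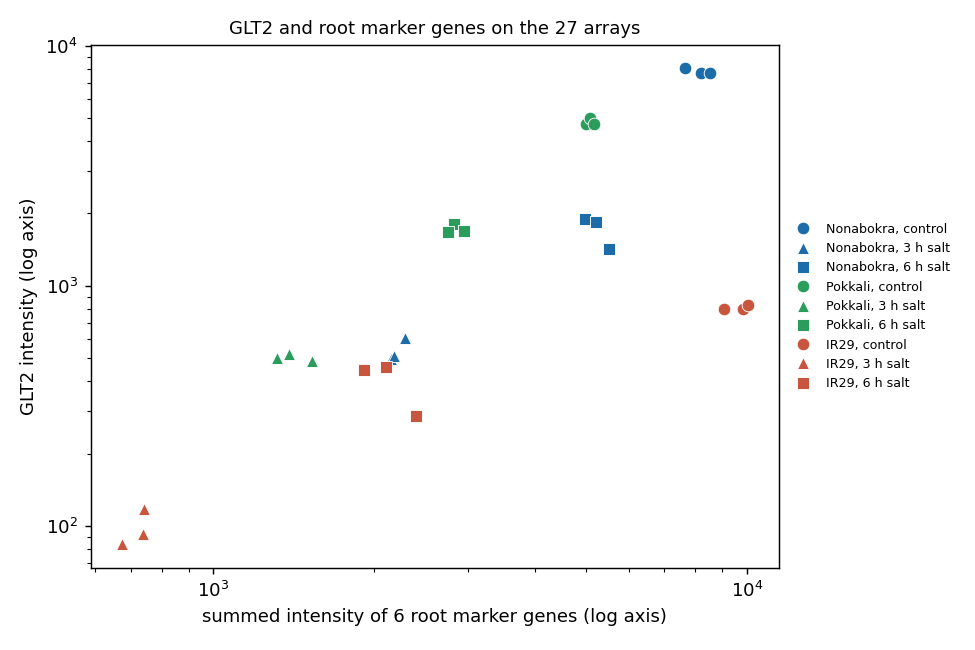
GLT2 intensity (vertical, log axis) against the summed intensity of 6 root marker genes (horizontal, log axis) on the 27 arrays, with colours for cultivars and shapes for the times (circles control, triangles 3 h, squares 6 h). Within a cultivar the 3 h arrays are lowest on both axes and the control arrays are highest on both, while unstressed IR29 lies at a high root sum of 9079 to 10047 with GLT2 of 799 to 829.9.

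Without salt, 2 of the 5 genes were higher in Nonabokra than in IR29 on every array (15.3% of all probe sets), 2 were lower (58.4%) and 1 overlapped. For Pokkali against IR29 the counts were 2 higher (18.5%), 2 lower (55.7%) and 1 overlapping. Nonabokra against Pokkali gave 3 higher (12.7%) and 2 lower (14.2%). NIA1 and GLN1-2 were the genes lower in both tolerant cultivars than in IR29, and GLT2 and GLN1-3 were the genes higher in both. The GLN1-3 arrays of IR29 were little above the array medians, so the size of its difference from IR29 is not given. NIA1 differed by -0.77 ± 0.05 in Nonabokra and -2.21 ± 0.05 in Pokkali relative to IR29, and GLN1-2 by -0.98 ± 0.08 and -1.18 ± 0.08. GLT2 differed by 3.24 ± 0.14 and 2.55 ± 0.14. GLN1-1 differed by -0.15 ± 0.19 and 0.04 ± 0.19, with overlapping arrays in both comparisons. These comparisons share the IR29 control arrays.

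At 6 h of salt set against 3 h, 3 genes were higher in Nonabokra (12.8% of all probe sets) and 2 lower (14%). In Pokkali 3 were higher (14.2%), 1 lower (58.7%) and 1 overlapped, and in IR29 3 were higher (11.4%) and 2 lower (11.7%). GLN1-3 is 1 of the 3 counted in IR29, at the low signal that gave no readable course there. NIA1 and GLT2 were higher at 6 h than at 3 h in each cultivar. GLN1-2 was higher at 6 h in Nonabokra (1.07 ± 0.08) and Pokkali (1.1 ± 0.08) and lower in IR29 (-0.45 ± 0.08). GLN1-1 was lower at 6 h in Nonabokra (-0.60 ± 0.19) and IR29 (-0.42 ± 0.19) and overlapped in Pokkali, and GLN1-3 was lower in Nonabokra and Pokkali.

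The 5 genes had little in common across the 9 group means. Pearson r between pairs of them, taking the brighter probe set of NIA1, lay between -0.537 for NIA1 with GLN1-3 and 0.308 for GLN1-1 with GLN1-3. GLN1-2 and GLN1-3 had r = -0.00352, and GLN1-1 and GLN1-2 had r = -0.258. The 3 isoforms of cytosolic glutamine synthetase thus had separate courses on the probe sets given, though probes for such close relatives can take up each other's transcripts, which was not tested here.

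The genes most like GLT2 in their 9 group means were IPP (r = 0.945), RAC4 (r = 0.937), a small GTPase gene, and PDF1B (r = 0.93), which encodes a peptide deformylase. Those most like NIA1 were GLP2 (r = 0.915), a germin-like protein gene, SS2 (r = 0.868) and MYBS1 (r = 0.863), a MYB transcription factor gene. GLP2 read 19.4 ± 4.13 in unstressed Pokkali and 1314 ± 89.1 in unstressed IR29 (SD, n = 3 each), so it had its extremes in the same groups as NIA1. Those most like GLN1-3 were OrysaZ1 (r = 0.93), PHT1-2 (r = 0.917), a phosphate transporter gene, and EGY3 (r = 0.885). EGY3, related to plastid proteases, read 407 ± 28.9 in unstressed Nonabokra, 6141 ± 363 after 3 h and 2605 ± 302 after 6 h (SD, n = 3 each), with its highest value in the same group as GLN1-3. Those most like GLN1-1 were GLUP4 (r = 0.887), a small GTPase gene, GK1 (r = 0.864) and MYB15 (r = 0.861), a MYB transcription factor gene. These correlations were picked as the highest of 1057 over 9 points and say nothing of shared function or control.

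Around these 5 genes, 21 further genes of nitrogen uptake, assimilation and control had a probe set, from 56 names looked up. They comprise 3 genes of nitrate uptake, 8 of ammonium uptake, 2 of glutamine and glutamate synthesis, 3 of glutamate dehydrogenase and 5 regulators. Nitrite reductase, asparagine synthetase and the other nitrate reductase genes were not analysed here, since their names had no match. By limma's test with Benjamini-Hochberg adjustment over all probe sets, 7 of the 21 were higher in Nonabokra at 3 h (13% of all probe sets) and 4 lower (14.9%). In Nonabokra at 6 h 7 were higher (10.2% of all probe sets) and 4 lower (12.2%). In Pokkali 6 were higher at 3 h (11.8%) and 5 lower (13.4%), and at 6 h 8 were higher (10.1%) and 4 lower (12.1%). In IR29 at 3 h 5 were higher (15.7%) and 5 lower (48.2%), and at 6 h 5 were higher (12%) and 6 lower (41.4%). The lower counts of IR29 include dim ammonium transporter genes, with group means of at most 13.3, whose differences cannot be read as a response. When each gene is represented by its brightest probe set, 57.6%, 47.1%, 53.1%, 43.5%, 64.1% and 52.9% of 17905 genes passed in the same 6 comparisons, against 52.4%, 52.4%, 52.4%, 57.1%, 47.6% and 52.4% of the 21. In IR29, 5849 of these 17905 genes were higher and 5627 lower at 3 h, and 4650 were higher and 4829 lower at 6 h. The shares of lower probe sets in IR29 thus exceed those of lower genes. The median log2 difference of the 21 lay between -0.0091 and 0.051, and that of all probe sets between -0.0093 and 0.00098.

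**Figure D5:**
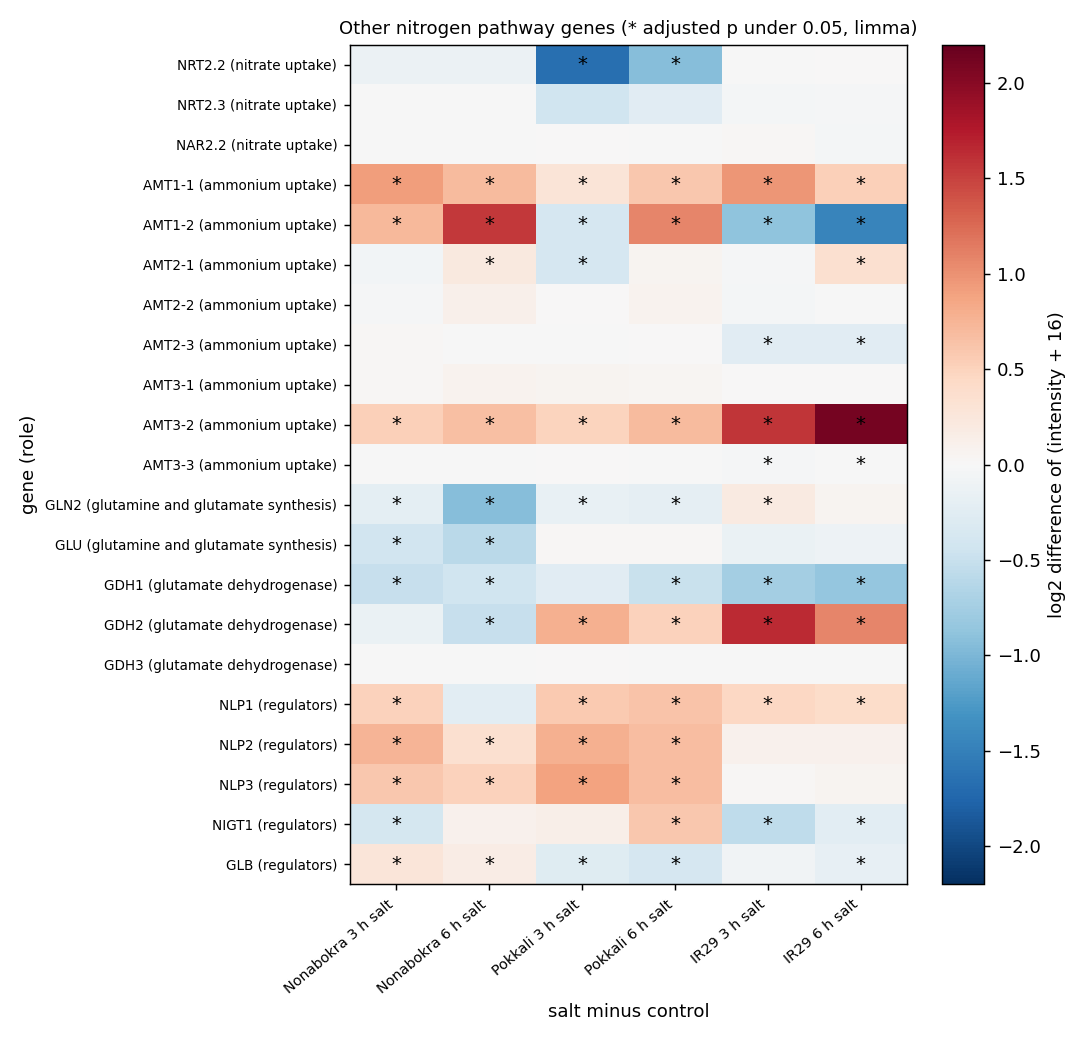
Log2 difference of (intensity + 16), salt minus control (colour, red higher and blue lower), for 21 other nitrogen pathway genes (down) in the 6 salt comparisons (across), with a star where limma's adjusted p was under 0.05. AMT1-2 is red in Nonabokra and in Pokkali at 6 h and blue in IR29, AMT3-2 and AMT1-1 are red in all 6 comparisons, and NLP2 and NLP3 have stars in Nonabokra and Pokkali but none in IR29.

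Among the ammonium transporter genes, AMT1-2, known from rice roots, was higher at 6 h in both tolerant cultivars and lower in IR29. Its log2 difference at 6 h was 1.56 ± 0.08 in Nonabokra (limma adjusted p = 1.3e-11) and 1.08 ± 0.08 in Pokkali (limma adjusted p = 4.1e-09). In IR29 it was -1.45 ± 0.08 (limma adjusted p = 6e-11). At 3 h AMT1-2 was higher in Nonabokra by 0.71 ± 0.08 (limma adjusted p = 8.2e-07), and lower in the other cultivars, with -0.37 ± 0.08 in Pokkali (limma adjusted p = 0.0019) and -0.89 ± 0.08 in IR29 (limma adjusted p = 5.1e-08). The test of a difference from the IR29 response was passed by 16.2% of all probe sets for Nonabokra and by 12.8% for Pokkali at 6 h, and by 25.4% and 46.9% at 3 h. For AMT1-2 at 6 h that difference was 3.01 ± 0.12 in Nonabokra (limma adjusted p = 3.9e-13) and 2.53 ± 0.12 in Pokkali (limma adjusted p = 6.2e-12). All 3 arrays of each group followed these directions. On the same arrays the summed root markers at 6 h were 4970 to 5524 in Nonabokra, against 7670 to 8544 in its control, 2748 to 2946 in Pokkali, against 4987 to 5177, and 1912 to 2401 in IR29, against 9079 to 10047. Most of this sum comes from NIP2-1 and Lsi2. By limma's adjusted p at 6 h, 2 of the 6 markers passed as lower and 2 as higher in Nonabokra, 2 and 1 in Pokkali, and 4 and 0 in IR29. The part of root RNA in the AMT1-2 values was not tested.

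AMT3-2, another ammonium transporter gene, read 167, 109 and 98.7 in unstressed IR29, 376, 403 and 407 after 3 h and 628, 615 and 495 after 6 h. Its log2 difference in IR29 was 1.58 ± 0.12 at 3 h and 2.1 ± 0.12 at 6 h (limma adjusted p = 2.1e-09 and 4.6e-11). In Nonabokra and Pokkali it was also higher at both times, by 0.49 to 0.70, and the IR29 response was the larger in each of the 4 comparisons of responses with IR29. The name of its probe set marks probes that may take up transcripts of other genes. AMT1-1 was higher in all 6 comparisons, by 0.29 in Pokkali at 3 h to 0.97 in IR29 at 3 h. Of the other 5 ammonium transporter genes AMT2-1 passed in 3 comparisons, with -0.37 in Pokkali at 3 h as its largest difference, and the rest had group means of at most 13.3.

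The enzymes that share the pathway with GLN1 and GLT2 in chloroplasts were lower in Nonabokra. GLN2, the chloroplast glutamine synthetase, read 10946, 11618 and 11528 in unstressed Nonabokra, 10368, 9065 and 9843 after 3 h and 5664, 6037 and 6185 after 6 h. Its log2 difference was -0.22 ± 0.05 at 3 h and -0.93 ± 0.05 at 6 h (limma adjusted p = 0.00087 and 5e-12), all arrays below control. The call at 3 h was lost in a fit to the compared groups alone (limma adjusted p = 0.063). In the same cultivar at 6 h GLN1-2 was 2.19 times control. In Pokkali GLN2 was lower, with -0.17 at 3 h and -0.21 at 6 h (limma adjusted p = 0.009 and 0.0026). In IR29 GLN2 was higher by 0.20 at 3 h (limma adjusted p = 0.0015), and the 6 h difference of 0.06 did not pass (limma adjusted p = 0.26). The Pokkali call at 3 h was lost without replicate 3 of that group (-0.13, limma adjusted p = 0.07). A dimmer probe set of GLN2 had log2 differences between -1.66 and -0.33 in the 6 comparisons, and passed as lower in Nonabokra at both times and in Pokkali at 3 h. On that probe set the value of IR29 at 3 h was -0.33, of the opposite sign (limma adjusted p = 0.36).

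GLU, the ferredoxin-dependent glutamate synthase, read 12973, 13102 and 12604 in unstressed Nonabokra, 10469, 8856 and 9658 after 3 h and 7732, 9170.2 and 8846 after 6 h. Its log2 difference in Nonabokra was -0.42 ± 0.07 at 3 h and -0.59 ± 0.07 at 6 h (limma adjusted p = 4.6e-05 and 9.3e-07). In Pokkali the differences were 0.02 and 0.03, and in IR29 -0.15 and -0.11, and none of these passed. The IR29 difference at 3 h was near the threshold (limma adjusted p = 0.057). It passed in some alternatives, among them quantile normalization (limma adjusted p = 0.047) and the fit to the compared groups alone (limma adjusted p = 0.036). With the probe sets of GLU averaged, a dim one included, IR29 passed as lower at both times (limma adjusted p = 0.0028 and 0.0042). GLT2, the NADH form, was lower in all 6 comparisons, with log2 differences between -3.82 and -1.03. On another bright probe set, GLU was lower in IR29 at 6 h, with a log2 difference of -0.43 (limma adjusted p = 0.01).

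Glutamate dehydrogenase can release ammonium from glutamate or bind it. GDH2 read 1854, 1676 and 1691 in unstressed IR29, 5807, 5317 and 5223 after 3 h and 3801, 3647 and 3616 after 6 h. Its log2 difference in IR29 was 1.64 ± 0.06 at 3 h and 1.08 ± 0.06 at 6 h (limma adjusted p = 1.1e-14 and 1.1e-11), against 0.78 ± 0.06 and 0.51 ± 0.06 in Pokkali (limma adjusted p = 7e-10 and 6.2e-07). In Nonabokra it was -0.14 ± 0.06 at 3 h (limma adjusted p = 0.067) and -0.50 ± 0.06 at 6 h (limma adjusted p = 6.2e-07). The response of Nonabokra minus that of IR29 was -1.78 ± 0.08 at 3 h and -1.58 ± 0.08 at 6 h (limma adjusted p = 1.7e-12 and 1.5e-11). The 2 dimmer probe sets of GDH2 gave -0.63 and -0.02 for IR29 at 6 h, and the first of these passed as lower (limma adjusted p = 0.00046). For IR29 at 3 h they gave 0.16 and 0.93, and only the second passed (limma adjusted p = 0.0025). Neither passed in Pokkali at either time or in Nonabokra at 6 h. Apart from IR29 at 3 h, the calls of GDH2 thus rest on the brightest probe set alone. GDH1 was lower in 5 of 6 comparisons, with log2 differences between -0.85 in IR29 at 6 h and -0.44 in Nonabokra at 6 h, and its difference of -0.25 in Pokkali at 3 h did not pass (limma adjusted p = 0.13). GDH3 passed in none of the 6 and was below every array median.

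Of the regulators, NLP2 and NLP3, members of the NIN-like family that activates nitrate-responsive genes, were higher in Nonabokra and Pokkali at both times. The log2 differences of NLP3 were 0.60 and 0.50 in Nonabokra, 0.89 and 0.67 in Pokkali, and 0.03 and 0.06 in IR29, where they did not pass. Those of NLP2 were 0.75 and 0.35 in Nonabokra, 0.79 and 0.69 in Pokkali, and 0.09 and 0.10 in IR29, where they did not pass either. Tested against IR29, the NLP3 response was larger in both cultivars at both times (limma adjusted p = 0.00095 and 0.01 for Nonabokra, 9.3e-06 and 0.00065 for Pokkali). The NLP2 response was larger in Pokkali at both times, and in Nonabokra at 3 h but not at 6 h (limma adjusted p = 0.13). Of all probe sets 25.4% and 16.2% passed these tests for Nonabokra at 3 h and 6 h, and 46.9% and 12.8% for Pokkali. NLP2 and NLP3 were named after their values were seen, so these p-values describe genes picked from the same data. NLP1 was higher in 5 of 6 comparisons and did not pass in Nonabokra at 6 h. NIGT1, a repressor induced by nitrate, was higher in Pokkali at 6 h and lower in Nonabokra at 3 h and in IR29 at both times. GLB, the nitrogen sensor protein PII, was higher in Nonabokra and lower in Pokkali at both times, and lower in IR29 at 6 h.

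The nitrate transporter genes were near the array floor outside Pokkali. NRT2.2, a high-affinity nitrate transporter gene, read 48.0, 54.8 and 44.7 in unstressed Pokkali, 4.32, 4.76 and 4.49 after 3 h and 17.0, 12.7 and 24.8 after 6 h. It passed as lower at both times (limma adjusted p = 3.4e-12 and 3.2e-08). All 3 h arrays were below the array medians, so the size of the difference at 3 h is set by the floor of the arrays, and at 6 h the log2 difference was -0.94 ± 0.08. In Nonabokra and IR29 it read 4.26 to 8.84 on all arrays, around or below the array medians, and no difference could be read there. Its probe set also carries the mark for probes that may take up other transcripts. NRT2.3 and NAR2.2 passed in none of the 6 comparisons.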

How the data were processed

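Expression was measured on 27 Affymetrix rice genome arrays, 3 for each of 9 groups. The deposited values are linear intensities per probe set, made by the authors with GCOS per the submitters' processing notes, and their summarisation and normalization are not given in the sources used here. The depth of an array has no count, so the number of arrays limits the precision. Of 57381 probe sets, 187 (spikes, reporters and other controls) were set aside. Gene names came from the platform annotation, updated through RefSeq (assembly ASM3414082v1), and 22436 probe sets had 1 gene, 95 several and 34663 none. Log2(intensity + 16) was fitted in limma 3.58.1 (R 4.3.3) with 1 mean per group over all 27 arrays, and p-values were adjusted by Benjamini-Hochberg over 57194 probe sets, called at 0.05. Members and lists were chosen with earlier results of these data known. No p-value is given for the 5 genes. A gene was represented by its brightest probe set. Other genes were named where the choice of list fixed them, or where they passed with a log2 difference of 1 or more and no overlap, at most 6 a comparison. Genes most like a member were the 3 with the highest Pearson r over 9 group means, among genes that spanned 1 log2 unit or more. NLP2, NLP3 and other pathway genes under that size were named after their values were seen. Replicate numbers were checked for pairing by the correlation of residuals: all 3 same-number values were over 0.1 in 3 of 36 pairs of groups (Nonabokra with IR29 at 6 h, 0.79, 0.51 and 0.49; unstressed Nonabokra with unstressed Pokkali; unstressed Pokkali with IR29 at 6 h) and in no pair of salt with control of a cultivar. The numbers thus do not pair the samples throughout, and the fit had no block. With the block, counts of pathway genes passing for unstressed Nonabokra against Pokkali (13) and for the response of Nonabokra minus IR29 at 6 h (9) were the same. A block shared by all arrays cannot take up a pairing confined to certain groups, so the effect of such a pairing was not tested. P-values measure the spread between these samples, which may be technical. Alternatives were other pseudocounts, quantile normalization, median centring, a filter on dim probe sets, a fit of 2 groups alone, a trended prior, a replicate block, averaging a gene's probe sets, and leaving out each array. The code was tested on simulated data.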

Additional observations from a re-analysis of the deposited data

Results flagged for a closer look

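AMT1-2 differed between cultivars in its salt response by limma's interaction test. Nonabokra minus IR29 was 1.60 log2 units at 3 h (limma adjusted p = 3.7e-09) and 3.01 at 6 h (limma adjusted p = 3.9e-13). Pokkali minus IR29 was 2.53 at 6 h (limma adjusted p = 6.2e-12), and Nonabokra minus Pokkali was 1.08 at 3 h (limma adjusted p = 1.4e-06).

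AMT3-2 had a smaller response in both tolerant cultivars than in IR29. Nonabokra minus IR29 was -1.05 at 3 h and -1.43 at 6 h (limma adjusted p = 0.00011 and 3.3e-06), and Pokkali minus IR29 was -1.08 and -1.40 (limma adjusted p = 7.7e-05 and 4.7e-06). GDH2 differed by -1.78 at 3 h and -1.58 at 6 h for Nonabokra minus IR29, and by -1.01 at 6 h for Nonabokra minus Pokkali (limma adjusted p = 1.7e-12, 1.5e-11 and 1.4e-08). These GDH2 values come from its brightest probe set, which its dimmer probe sets did not follow in IR29 at 6 h. NRT2.2 at 3 h differed by -1.66 for Pokkali minus IR29 and by 1.53 for Nonabokra minus Pokkali (limma adjusted p = 2.7e-09 and 1.1e-08). Nonabokra and IR29 were near the array floor with and without salt, as was Pokkali at 3 h, so these values show a level of NRT2.2 in unstressed Pokkali and give no readable response in the other cultivars. At 3 h 12.7% and at 6 h 13.7% of all probe sets passed for Nonabokra minus Pokkali.

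For genes of the set itself the difference between cultivars was not tested, and every array of one cultivar lay on the opposite side of its control from the other cultivar. NIA1 was higher in Pokkali and lower in IR29 at 3 h, a difference of 2.02 log2 units for Pokkali minus IR29. It was lower in Nonabokra and higher in Pokkali at both times, and Nonabokra minus Pokkali was -1.19 at 3 h and -1.44 at 6 h. GLN1-2 at 6 h was higher in Nonabokra and Pokkali and lower in IR29, and the differences from IR29 were 2.55 and 2.31. GLN1-3 at 6 h was higher in Nonabokra and lower in Pokkali, a difference of 2.28 for Nonabokra minus Pokkali that rests on a dim Nonabokra control.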

How the results depend on the processing

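Of 534 recomputed differences of the 5 genes, 500 moved by less than the spread between arrays, 30 moved further and 4 were counted as reversed. Reversal was counted only for differences that cleared limma's threshold with no overlap of arrays. The 4 belong to the dim probe set of NIA1 in IR29. Its differences were 0.0026 at 3 h and 0.00073 at 6 h with quantile normalization, and 0.016 and 0.0085 with median centring. Other changes of sign are within the 500 and the 30. Without replicate 1 of the 6 h group, GLN1-1 at 6 h went from -0.21 to 0.11 in IR29 and from -0.17 to 0.035 in Nonabokra. Of 2226 recomputed differences of named pathway genes, 2173 kept their call and, where they passed, their direction. Another 20 newly passed, 30 no longer passed and 3 reversed. Changes of direction among differences that passed in neither fit were not counted. The 3 reversals came from averaging all probe sets of a gene, which includes dim ones: GLN2 in IR29 at 3 h was -0.067, GDH2 in unstressed Pokkali against unstressed IR29 was -0.28, and the GDH2 response of Pokkali minus IR29 at 6 h was 0.11. Of 318 recomputed counts of pathway genes, 314 stayed within 1.5 times. With a fit to the compared groups alone, which has fewer arrays, 6 genes passed in Nonabokra at 6 h, 7 in IR29 at 6 h, 5 in Nonabokra at 6 h against 3 h, and 7 in unstressed Nonabokra against unstressed IR29, compared with 11, 11, 8 and 13.

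Leaving out each array in turn gave 11 to 12 genes in Nonabokra at 3 h, 10 to 12 at 6 h, 10 to 12 and 12 to 13 in Pokkali, and 10 to 11 and 8 to 12 in IR29. Without the 3 arrays least like their groups, a choice made after seeing the data, the counts were 11, 10, 11, 13, 11 and 12. With the replicate block, where the numbers share no stated batch, they were 12, 11, 11, 12, 10 and 11, and GDH2 in Nonabokra at 3 h passed (limma adjusted p = 0.024). The IR29 call of GDH2 at 6 h was lost when its probe sets were averaged (0.14, limma adjusted p = 0.26), and that of GLN2 in Pokkali at 3 h with quantile normalization (limma adjusted p = 0.091). The fit to the compared groups alone also lost AMT1-2 in Pokkali at 3 h (limma adjusted p = 0.052), GDH1 in Nonabokra at 6 h (limma adjusted p = 0.099) and GLN2 at 3 h in Nonabokra and Pokkali (limma adjusted p = 0.063 and 0.055). The causes were not tested. Signal over background limits GLN1-3 in IR29 and in unstressed Nonabokra, NRT2.2 outside Pokkali and in Pokkali at 3 h, and the dim probe set of NIA1.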
